A study of Mus musculus with 20 samples.

Results

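The T cell coreceptors and the transcription factors that set them were followed as 10 genes in sorted donor T cells from an allogeneic bone marrow transplantation (BMT) model. The 3 coreceptor genes are *Cd4*, *Cd8a* and *Cd8b1*, and the 7 factors are *Zbtb7b*, *Gata3*, *Runx3*, *Runx1*, *Cbfb*, *Tcf12* and *Ikzf1*. They were taken by symbol from a table of 17101 genes, in which all 10 were found, and all 10 passed the filter on low values in every comparison described here. RNA-Seq had been done on 20 libraries of splenic donor T cells sorted on day 10 after transplantation, with 4 libraries in each of 5 groups. Donors with the DNMT3a KO (CD4-Cre, 2loxP) gave CD4+, CD8+ and CD4+CD8+ double-positive (DP) cells, in libraries numbered 1 to 4, and WT donors gave CD4+ and CD8+ cells, in libraries numbered 2, 3, 5 and 6. A number shared by libraries of a genotype is written here as the same animal, and whether it names the donor or the recipient is not given in the sources used here. No WT DP library was used here. Donors were 6 to 12 weeks old and recipients 8 to 12 weeks, B6 marrow and T cells were given to F1 recipients in every group, and whether the WT donors carried Cre is not given in the sources used here. CD4-Cre is active from the thymic DP stage, so that it deletes in the precursors of both CD4+ and CD8+ cells.

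CD4 and CD8 are coreceptors that bind MHC class II and class I beside the T cell receptor, and a mature T cell normally keeps only CD4 or CD8. CD8 is a dimer of an alpha chain, encoded by *Cd8a*, with a second alpha chain or a beta chain, encoded by *Cd8b1*. *Zbtb7b* encodes ThPOK, which commits thymocytes to the CD4+ helper lineage, and *Runx3* encodes the factor that, with its partner CBFb, silences *Cd4* in the CD8+ cytotoxic lineage. In CD8+ cells the silenced state of *Cd4* is known to be inherited through cell division. DNMT3a is an enzyme that places new methyl groups on the cytosine of CpG dinucleotides.

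All positions are those of RefSeq on GRCm38.p6, the assembly of the authors' mm10 build, and reads were counted on exons with strand. *Cd4* lies on the minus strand of chr6:124864693-124888247, while *Cd8b1* (chr6:71322788-71337492) and *Cd8a* (chr6:71373427-71379171) are neighbours on the plus strand of the same chromosome. *Zbtb7b* lies at chr3:89377644-89393673 and *Runx3* at chr4:135120645-135177990. No other annotated gene shares exon bases with any of the 10 genes on the same strand. The RefSeq promoter table held 14 promoters for 8 of the 10 genes, without *Cd4* and *Cd8b1*. The 250 bases before the start are printed below for the CD8 alpha chain and for the opposed lineage factors, because these promoters differ widely in CpG dinucleotides, the substrate of the deleted enzyme. CpG dinucleotides are in capitals, 5′ to 3′ on the strand of the gene.
Cd8a: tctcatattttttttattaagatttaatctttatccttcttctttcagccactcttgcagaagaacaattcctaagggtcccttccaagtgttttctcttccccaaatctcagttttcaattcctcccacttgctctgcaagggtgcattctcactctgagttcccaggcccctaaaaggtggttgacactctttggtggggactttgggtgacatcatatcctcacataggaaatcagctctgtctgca
Zbtb7b, promoter at the outer start: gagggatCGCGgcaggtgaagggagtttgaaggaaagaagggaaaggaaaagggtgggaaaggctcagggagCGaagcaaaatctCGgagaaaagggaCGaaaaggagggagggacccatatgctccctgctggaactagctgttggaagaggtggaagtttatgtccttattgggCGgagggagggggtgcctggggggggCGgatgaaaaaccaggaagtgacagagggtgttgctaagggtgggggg
Runx3, promoter at the outer start: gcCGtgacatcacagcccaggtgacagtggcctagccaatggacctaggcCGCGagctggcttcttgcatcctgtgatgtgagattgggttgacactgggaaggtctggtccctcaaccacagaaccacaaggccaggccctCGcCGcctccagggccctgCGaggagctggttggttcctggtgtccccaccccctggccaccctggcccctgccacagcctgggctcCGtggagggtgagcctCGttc
Runx3, promoter at the inner start: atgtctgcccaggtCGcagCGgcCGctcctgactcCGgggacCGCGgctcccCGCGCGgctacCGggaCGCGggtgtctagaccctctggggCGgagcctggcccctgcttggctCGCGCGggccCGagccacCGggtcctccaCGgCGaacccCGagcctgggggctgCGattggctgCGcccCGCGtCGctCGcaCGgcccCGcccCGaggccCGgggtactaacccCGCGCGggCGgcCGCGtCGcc
The *Cd8a* window held 0 CpG dinucleotides, a number shared by 7.87% of the 32851 promoters in the table, whose median was 6. *Zbtb7b* held 7 and the outer *Runx3* promoter 8, close to that median. The inner *Runx3* promoter, at chr4:135152295-135152544, held 38, and 98.4% of all promoters held as many or fewer. The letters TGTGGT or TGCGGT, which Runx proteins are known to bind, were searched on both strands. They were found in 2 of the 14 windows, with 2 matches in the outer *Runx3* window and 1 in an inner *Zbtb7b* window, and in 18.6% of all promoters. These counts describe letters, and methylation was not analysed here.

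The 20 libraries held 37547651 to 46966318 reads on genes. *Dnmt3a* was lower in every KO library (650.4 to 2007 normalized counts) than in every WT library (3542 to 5171). The summed level of 7 T cell genes was 190969 to 330623 in all libraries, and that of 6 B cell genes was 406 to 530 in WT CD8+, 1681 to 2749 in KO CD8+, 1250 to 1681 in WT CD4+ and 1650 to 2151 in KO CD4+ cells. Summed NK cell genes, which cytotoxic T cells also use, were 5642 to 7216 in WT CD8+ and 6207 to 16139 in KO CD8+ cells, and 659 to 841 in WT CD4+ and 833 to 2170 in KO CD4+ cells. The summed level of 6 genes of conventional dendritic cells, some of which carry CD8 alpha, was 6850 to 10205 in WT CD8+ and 4764 to 11832 in KO CD8+ cells. Most of that sum was *Itgax*, at 6000 to 9242 in WT and 4515 to 11587 in KO CD8+ cells. Lower in KO CD8+ cells without overlap were *Xcr1* (593 to 680 in WT, 147 to 239 in KO), *Clec9a* (71.0 to 140, 0 to 11.2), *Zbtb46* (47.6 to 70.7, 12.4 to 32.5) and *Flt3* (49.4 to 94.5, 0 to 38.1). *Batf3* overlapped (23.4 to 69.5, 1.07 to 58.7). Summed neutrophil genes were 1733 to 4241 in the WT and 0 to 7254 in the KO libraries. The part of such cells in the results was not tested. The DP library of KO animal 3 stood apart, with reads on 11783 genes against 13378 to 14677 in the libraries of the other groups.

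The sort set which subsets were high and which were low in each coreceptor, and these differences are given as levels with no test, while groups sorted for the same coreceptor protein were tested against each other. Values are reads divided by the DESeq2 size factor of the library, called normalized counts, with the SD over 4 libraries. *Cd4* was 67780.1 ± 3371 (SD, n = 4) in WT CD4+, 61586 ± 14351 in KO CD4+, 12123 ± 2756 in KO DP, 361 ± 67.7 in KO CD8+ and 32.6 ± 32.5 in WT CD8+ cells. *Cd8a* was 64360.5 ± 2918 in WT CD8+, 55471 ± 10228 in KO CD8+ and 54657 ± 11150.4 in KO DP cells, and 240.1 ± 233 in WT CD4+ and 1048 ± 1817 in KO CD4+ cells. The 3 groups that carried CD8 protein thus overlapped in *Cd8a*, whereas the steps in *Cd4* from KO CD4+ to KO DP, from KO DP to KO CD8+ and from KO CD8+ to WT CD8+ cells had no overlapping libraries.

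**Figure D1:**
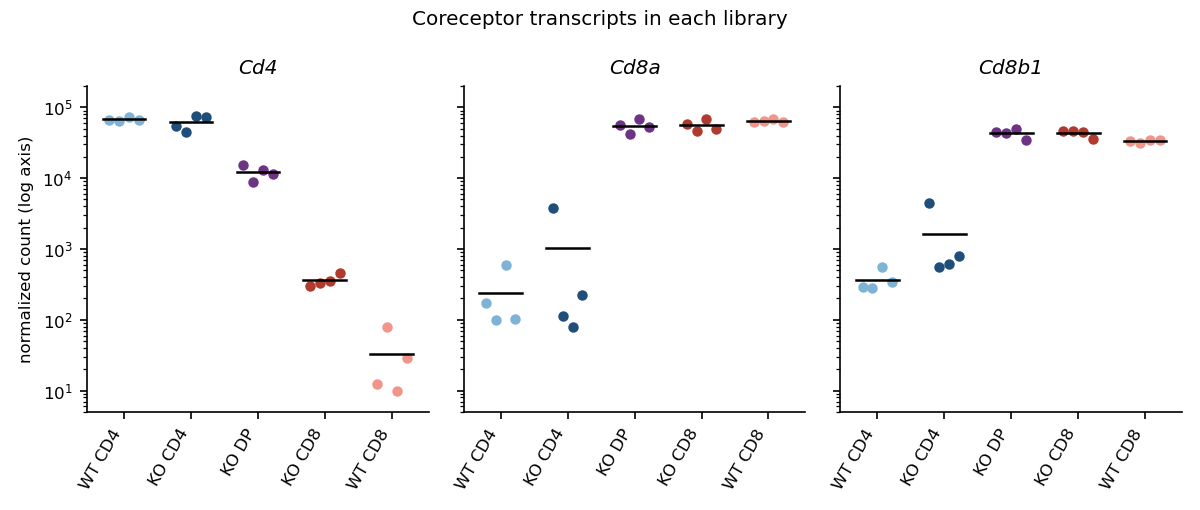
Normalized counts (log axis) of *Cd4*, *Cd8a* and *Cd8b1* in each of the 20 libraries, with a point per library and a line at the mean of 4. *Cd4* steps down from the CD4+ libraries through KO DP and KO CD8+ to WT CD8+ libraries, and KO CD4+ replicate 1 lies above the other CD4+ libraries in *Cd8a* and *Cd8b1*.

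KO and WT cells of the same subset were compared to ask how the coreceptor program differed without DNMT3a. Each comparison was made with limma on log2(normalized count + 1), where the added count draws the fold changes of low genes toward 0, and a gene was called when its adjusted p was under 0.05. In CD8+ cells 5 of the 10 genes were called, of which 4 were higher (*Cd4*, *Cd8b1*, *Tcf12* and *Ikzf1*) and 1 lower (*Runx3*). Of all 12383 genes tested in CD8+ cells 25.2% were called, 12.6% higher and 12.5% lower. In CD4+ cells 2 of the 10 were called, *Tcf12* higher and *Gata3* lower, against 18.4% of 12391 genes, with 8.59% higher and 9.77% lower. The median log2 fold change of the 10 genes was 0.07 in CD8+ and 0.04 in CD4+ cells, beside medians of -0.04 and -0.05 over all genes.

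*Cd4*, the coreceptor that CD8+ cells silence, had the largest change among the 10. Its normalized counts were 302, 336, 349 and 458 in the KO CD8+ libraries 1 to 4, and 12.2, 79.6, 9.88 and 28.7 in the WT CD8+ libraries 2, 3, 5 and 6. Every KO library thus lay above every WT library, and among the WT libraries replicate 3 was the highest. The log2 fold change was 3.88 (SE 0.565, 95% interval 2.62 to 5.15, adjusted p = 0.00263), a 14.8-fold difference between means of log2 values. The models on whole reads gave 3.48 (edgeR, adjusted p = 0.00434) and 3.48 (DESeq2, adjusted p = 6.77e-09). It stayed past the threshold without any of the 8 libraries (adjusted p 0.00158 to 0.0125). The raised level remained small beside that of CD4+ cells. In KO CD8+ cells *Cd4* reached 0.469% to 0.749% of the level in CD4+ cells of the same animal, and in WT CD8+ cells 0.0136% to 0.123%. In these bulk libraries fewer cells of a type and less RNA per cell cannot be told apart, and whether the CD8+ gate left out every cell with CD4 protein is not stated in the sources used here. Helper-lineage genes were counted beside it, as a description that cannot decide whether cells with CD4 protein were present. These genes differed between WT CD4+ and WT CD8+ cells by 0.73 (*Cd28*) to 4.78 (*Tnfsf11*), and between KO DP and KO CD8+ cells by a median of 0.09. A small share of CD4+ or DP cells therefore need not move them enough to be called, and the presence of such cells was not tested. Of 11 helper-lineage genes tested between KO and WT CD8+ cells, limma called 0, edgeR 1 and DESeq2 1, and 3 had an unadjusted p under 0.05. Their log2 fold changes ran from -1.42 (*Il21*) to 0.69 (*Il2ra*), with a median of -0.51.

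In CD4+ cells *Cd4* was 54510.5, 44804, 74386 and 72645 in the KO libraries and 66999, 64652, 72567 and 66902 in the WT libraries. KO libraries lay both below and above the WT libraries. The difference was -0.17 (SE 0.156, 95% interval -0.51 to 0.18, adjusted p = 0.457), and -0.43 after quantile normalization (adjusted p = 0.0465). The KO to WT difference in CD8+ cells exceeded that in CD4+ cells by 4.05 (SE 0.605, adjusted p = 0.0451). *Cd4* was the only one of the 10 genes called in this genotype by subset interaction, in which 0.0161% of 12446 genes were called, all of them higher (0.0161%) and 0% lower. That call was fragile, with an adjusted p of 0.128 when no mean-variance trend was fitted, and it was lost in 12 of 16 fits that each left out 1 library (up to 0.157), namely every fit but those without KO CD4+ replicate 3, KO CD8+ replicate 1 or 3, or WT CD8+ replicate 3. These fits did not pair libraries of the same animal. With pairing by animal the adjusted p was 0.00425, where 1.39% of all genes were called. The call also held with edgeR (0.0213), with DESeq2 (0.00194) and in a joint fit of 20 libraries (0.0124).

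*Cd8b1*, the beta chain, was 46313, 46606, 44901 and 35472 in the KO CD8+ libraries and 32976, 31172, 34382 and 34031 in the WT CD8+ libraries. All 4 KO libraries exceeded all 4 WT libraries, KO replicate 4 by little. The log2 fold change was 0.38 (SE 0.0968, adjusted p = 0.0208). *Cd8a*, the alpha chain, did not pass the threshold, with 58009, 45783, 68740.3 and 49351 in KO and 62857, 63084, 68732 and 62768 in WT CD8+ libraries (log2 fold change -0.23, SE 0.123, adjusted p = 0.191). Without KO CD8+ replicate 3 it was called lower (-0.34, adjusted p = 0.0272). The ratio of beta to alpha chain counts within a library, which no scaling can move, was 0.798, 1.02, 0.653 and 0.719 in KO and 0.525, 0.494, 0.5 and 0.542 in WT CD8+ libraries. All KO ratios lay above all WT ratios, by 0.61 on the log2 scale (exact permutation test, 2-sided, n = 4 each, p = 0.0286, the smallest this design allows, and 0.143 adjusted over 5 ratio tests). The ratios were chosen after the values were seen. Per kilobase of annotated exon, *Cd8a* and *Cd8b1* were at 20562 ± 932 and 22377 ± 974 in WT CD8+ cells and at 17722 ± 3268 and 29253 ± 3570 in KO CD8+ cells. The call of *Cd8b1* was lost without any of the 4 WT CD8+ libraries (adjusted p 0.0506 to 0.0677), in a joint fit of 20 libraries (0.578) and after quantile normalization (log2 fold change 0.18, adjusted p = 0.146), which called *Cd8a* lower instead (-0.43, 0.0284).

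In CD4+ cells the CD8 chains were low, and KO CD4+ replicate 1 stood apart. *Cd8a* was 3771, 115, 78.3 and 227 in KO CD4+ and 174, 99.1, 586 and 102 in WT CD4+ libraries. *Cd8b1* was 4515, 549.9, 621 and 788 in KO CD4+ and 289.7, 285, 549 and 340.0 in WT CD4+ libraries. Replicate 1 held 6.50% of the *Cd8a* level and 9.75% of the *Cd8b1* level of CD8+ cells of the same animal, where the other 3 KO animals reached up to 0.461% and 2.22%. The KO to WT difference in *Cd8b1* was 1.57 (SE 0.571, adjusted p = 0.0773) with no overlap between the groups, and 0.87 (adjusted p = 0.051) without replicate 1. It was called with edgeR (2.15, adjusted p = 0.0448), in the joint fit (adjusted p = 0.0257) and without KO CD4+ replicate 2 (1.88, adjusted p = 0.0424). That in *Cd8a* was 0.73 (SE 1.07, adjusted p = 0.643) or 2.12 with edgeR (adjusted p = 0.218), and turned to -0.49 without replicate 1.

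*Zbtb7b*, the factor of the CD4+ lineage, followed the subsets. In WT CD4+ libraries it was 8756, 8595, 9300.4 and 9862, and in WT CD8+ libraries 2959, 2733, 2748 and 2759, a log2 difference of 1.70 (SE 0.053, adjusted p = 9.65e-11). In KO CD4+ libraries it was 5893, 6660.2, 9788 and 6558, and in KO CD8+ libraries 1546, 1587, 3283 and 2539, a difference of 1.74 (SE 0.253, adjusted p = 0.00661). The CD4+ libraries lay above the CD8+ libraries in both genotypes, and KO libraries spread more widely than WT libraries. In both KO subsets animal 3 had the highest level, which in CD8+ cells was above, and in CD4+ cells within, the WT range. KO against WT gave -0.36 in CD4+ cells (SE 0.138, adjusted p = 0.0881). The same contrast in CD8+ cells gave -0.40 (SE 0.219, adjusted p = 0.208). Neither was called. Without the library of animal 3 the differences were -0.52 (adjusted p = 0.00392) and -0.60 (adjusted p = 0.0218).

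*Gata3*, which acts ahead of *Zbtb7b* in CD4+ commitment, was 4152, 4533, 4578 and 4003 in KO CD4+ and 5202, 5203, 4831 and 5714 in WT CD4+ libraries. All KO CD4+ libraries lay below all WT CD4+ libraries, and *Gata3* fell by 0.28 on the log2 scale (SE 0.0782, adjusted p = 0.0354). The call was lost without KO CD4+ replicate 1 or 4 or without any WT CD4+ library (adjusted p 0.0539 to 0.108), and without a trend (0.0693). In CD8+ cells it was 2303, 2325, 2318 and 2205 in KO and 2757, 2274, 2596 and 2872 in WT libraries, with overlap and no call (-0.19, SE 0.0836, adjusted p = 0.117). Between subsets it was higher in CD4+ cells by 1.00 in WT (adjusted p = 1.71e-07) and by 0.91 in KO (adjusted p = 0.000646).

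**Figure D2:**
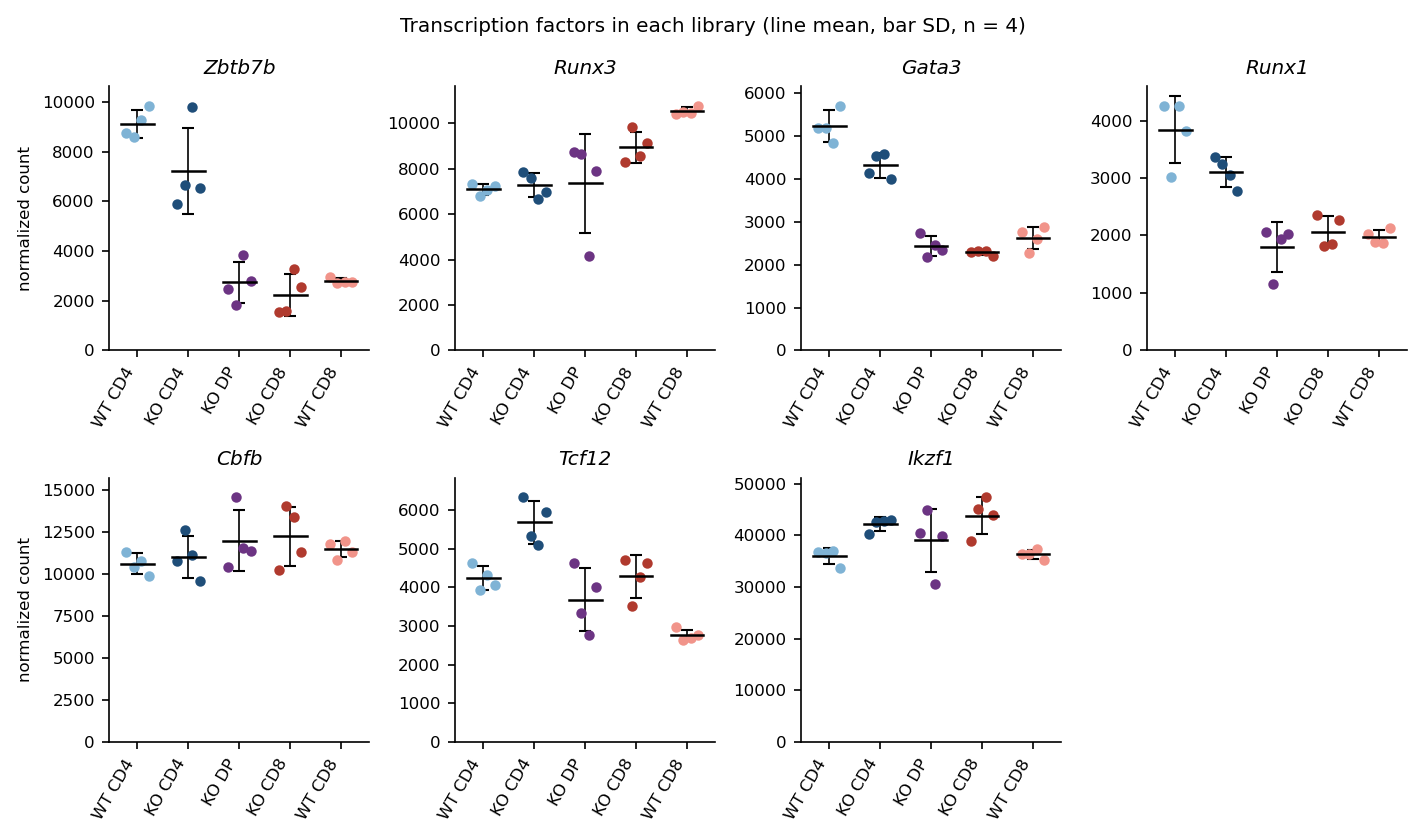
Normalized counts of the 7 transcription factors, each on its own linear axis from 0, with a point per library, a line at the mean and bars of 1 SD over 4 libraries. *Zbtb7b*, *Gata3* and *Runx1* lie higher in CD4+ than in CD8+ groups, *Runx3* is at 10403 to 10780.1 in WT CD8+ libraries, above all others, and KO DP replicate 3 is low in *Runx3* (4142) and *Ikzf1* (30619).

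*Runx3*, the factor of the CD8+ lineage, was 8289.8, 9824, 8563 and 9116 in KO CD8+ and 10403, 10516, 10474 and 10780.1 in WT CD8+ libraries. All KO libraries lay below all WT libraries, and *Runx3* fell by 0.24 on the log2 scale (SE 0.0667, adjusted p = 0.0284). The call was lost without any WT CD8+ library (adjusted p 0.0699 to 0.0867), without a trend (0.0574) and in the joint fit (0.327). In CD4+ cells it was 7835, 7590.1, 6679 and 6984 in KO and 7329, 6786, 7054 and 7252 in WT libraries, and the groups overlapped (0.03, SE 0.0723, adjusted p = 0.772). WT CD4+ cells had less *Runx3* than WT CD8+ cells by 0.57 (SE 0.0415, adjusted p = 1.7e-07). In KO the difference was -0.30 (SE 0.0898, adjusted p = 0.113), with no overlap between the groups, and it passed the threshold when libraries of the same animal were paired (adjusted p = 0.014). The interaction that compares these differences was -0.27 (adjusted p = 0.562). Per kilobase of exon, *Zbtb7b* and *Runx3* were at 1905 ± 120 and 1719 ± 58.6 in WT CD4+ cells and at 584 ± 22.3 and 2550.4 ± 39.8 in WT CD8+ cells. In KO they were at 1507 ± 363 and 1759 ± 129 in CD4+ cells and at 467 ± 174 and 2165 ± 164 in CD8+ cells. *Zbtb7b* was thus the higher of the pair in WT CD4+ cells, whereas in KO CD4+ cells the ranges of *Zbtb7b* (1229 to 2042) and *Runx3* (1616 to 1895) overlapped. The log2 ratio of *Zbtb7b* to *Runx3* counts did not differ between KO and WT CD4+ cells beyond the spread (-0.39, exact permutation p = 0.143, adjusted 0.357) or between KO and WT CD8+ cells (-0.16, exact permutation p = 0.6, adjusted 0.75).

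*Runx1*, which silences *Cd4* in early thymocytes, was higher in CD4+ than in CD8+ cells. It was 4248, 3017, 4259.8 and 3825 in WT CD4+ and 2023, 1892, 1865 and 2134 in WT CD8+ libraries, a difference of 0.94 (SE 0.0956, adjusted p = 3.7e-06). In KO it was 3366, 3246, 3054 and 2772 in CD4+ and 2350.3, 1816, 1848 and 2263 in CD8+ libraries, a difference of 0.59 (SE 0.117, adjusted p = 0.023). The KO call was lost without KO CD4+ replicate 1, 2 or 3 or KO CD8+ replicate 2 or 3 (adjusted p 0.0513 to 0.0683). KO against WT gave -0.29 in CD4+ cells (adjusted p = 0.0994), and -0.40 without WT CD4+ replicate 3 (adjusted p = 0.0368). In CD8+ cells the contrast gave 0.06 (adjusted p = 0.71). *Cbfb*, the shared partner of the Runx proteins, lay between 9569.6 and 14579.5 in all 20 libraries, and the 5 groups overlapped. It was not called between KO and WT in CD4+ (0.05, 95% interval -0.15 to 0.25) or CD8+ cells (0.08, 95% interval -0.14 to 0.31). Between WT CD4+ and WT CD8+ cells it differed by -0.11 (adjusted p = 0.0871), which passed the threshold with pairing by animal (adjusted p = 0.0386).

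*Tcf12*, which encodes the E protein HEB that acts at the *Cd4* enhancer, was higher in KO cells of both subsets. In CD8+ cells it was 4716, 3511, 4267 and 4630.2 in KO and 2963, 2626, 2697 and 2764 in WT libraries (0.62, SE 0.099, adjusted p = 0.00349). In CD4+ cells it was 6333, 5339.6, 5106 and 5944 in KO and 4625, 3923, 4319 and 4065 in WT libraries (0.42, SE 0.0885, adjusted p = 0.0134). No KO library overlapped a WT library of its subset. The CD8+ call held without any 1 library (adjusted p 0.00141 to 0.017), and the CD4+ call was lost only without WT CD4+ replicate 6 (0.0513). *Tcf12* was also higher in CD4+ than in CD8+ cells, by 0.61 in WT (adjusted p = 2.78e-06) and by 0.41 in KO (adjusted p = 0.0922, and 0.00332 with pairing by animal).

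*Ikzf1*, encoding Ikaros, which binds the *Cd8* locus, was 38856, 45000.0, 47376 and 43918 in KO CD8+ and 36300.0, 36427, 37269.7 and 35182 in WT CD8+ libraries. All KO libraries exceeded all WT libraries (0.27, SE 0.0759, adjusted p = 0.0305). The call was lost without KO CD8+ replicate 2 or 4 or any WT CD8+ library (adjusted p 0.0506 to 0.0948), without a trend (0.0506), in the joint fit (0.0795) and after quantile normalization (log2 fold change 0.04, adjusted p = 0.711). In CD4+ cells it was 40260.5, 42579, 42826 and 42987 in KO and 36749.5, 36496, 37040.5 and 33644 in WT libraries, again without overlap (0.23, SE 0.0747, adjusted p = 0.0557). That difference was called with edgeR (adjusted p = 0.0464), with DESeq2 (0.0027) and at a minimum mean of 50 (0.0492). Between subsets it was not called, with -0.01 in WT (95% interval -0.11 to 0.09) and -0.05 in KO (95% interval -0.26 to 0.16).

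Between WT CD4+ and WT CD8+ cells 5 of the 7 factors were called, 4 higher in CD4+ cells and 1 lower. In that comparison 44.5% of 12559 genes were called, 22.3% higher and 22.2% lower, and the share of factors called has to be read against it. Between KO CD4+ and KO CD8+ cells 3 of the 7 were called, all higher in CD4+ cells, against 4.22% of 12189 genes (2.73% higher and 1.48% lower), and with pairing by animal 5 were called, against 18.9% of all genes. The median of the 7 factors was 0.61 in WT and 0.41 in KO, beside -0.01 over all genes in each.

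**Figure D3:**
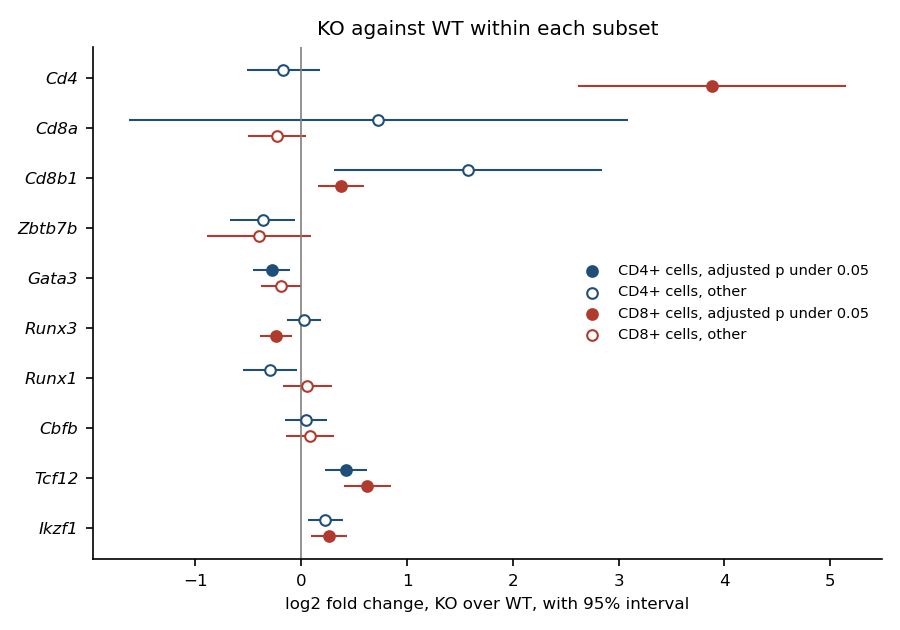
Log2 fold change of KO over WT with its 95% interval for the 10 genes, in CD4+ cells (blue) and CD8+ cells (red), from 4 libraries in each group. Filled points have an adjusted p under 0.05, and *Cd4* in CD8+ cells, at 3.88, lies farthest from 0.

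KO DP cells were set beside KO CD8+ and KO CD4+ cells of the same animals to ask which program they carried. DP cells held *Cd4* at 15351, 8758, 12911 and 11473 in animals 1 to 4, which was 15.8% to 28.2% of the level in CD4+ cells of the same animal (mean 20.2 ± 5.52%). Against KO CD4+ cells *Cd4* fell by 2.34 on the log2 scale in DP cells (SE 0.219, adjusted p = 0.00111), although both populations had been sorted as carrying CD4. DP cells held *Cd8a* at 56492, 41594, 68516 and 52025 and *Cd8b1* at 45336, 43969, 48814 and 34203. These were 90.9% to 105% and 94.3% to 109% of the levels in CD8+ cells of the same animal. In fits that did not pair libraries by animal the differences were -0.03 (95% interval -0.47 to 0.42) and -0.01 (95% interval -0.38 to 0.36). The ratio of beta to alpha chain counts in DP cells was 0.803, 1.06, 0.712 and 0.657, 0.01 above that in KO CD8+ cells in the mean of log2 values (exact permutation p = 0.886, adjusted 0.886).

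Set against KO CD8+ cells, KO DP cells differed in none of 9 genes by limma (*Cd4*, which the gate selects for, was left out). In that comparison 0.00823% of 12153 genes were called, 0.00823% higher and 0% lower, so that a count of 0 among 9 says little by itself. Of the 9, 0 had an unadjusted p under 0.05, and edgeR and DESeq2 called 0. *Zbtb7b* was 2457, 1848, 3840.3 and 2808 in DP cells, higher than in CD8+ cells of the same animal in 4 of 4 animals, at 111% to 159% of their level. The difference of 0.31 (95% interval -0.33 to 0.96) was not called (adjusted p = 0.871, and 0.405 with pairing by animal). *Gata3* in DP cells was 93.6% to 119% of the CD8+ level and *Runx1* 63.6% to 105%. *Runx3* was 8724, 8669.8, 4142 and 7922 in DP cells, or 48.4% to 105% of the CD8+ level, with the low value in animal 3, whose DP library was also the lowest of the 20 in *Ikzf1*. The difference in *Runx3* was -0.34 (95% interval -0.85 to 0.17), and -0.08 without that library. *Tcf12* in DP cells was 4631, 3330.0, 2757 and 3998, below the CD8+ cells of the same animal in 4 of 4 animals (-0.24, 95% interval -0.63 to 0.16 without pairing by animal).

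**Figure D4:**
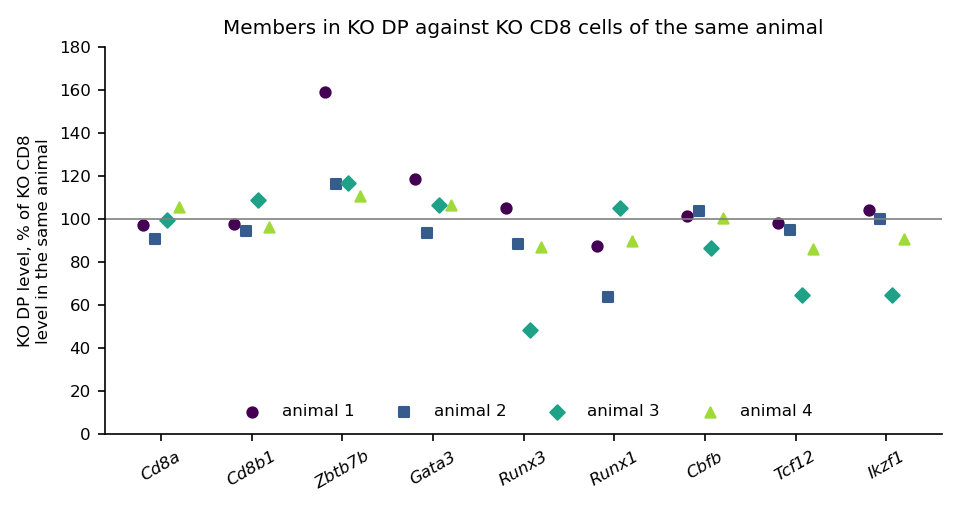
Level of 9 genes in KO DP cells as a percent of the level in KO CD8+ cells of the same animal, with a point per animal and a line at 100%. *Zbtb7b* lies above 100% in all 4 animals, from 111% to 159%, and animal 3 is low in *Runx3*, *Tcf12* and *Ikzf1*.

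Against KO CD4+ cells, 3 of 8 genes were called lower in KO DP cells, where 1.95% of 12175 genes were called (0.682% higher and 1.26% lower). Beside *Cd4* these were *Zbtb7b*, which fell by 1.42 (SE 0.231, adjusted p = 0.0157), and *Gata3*, which fell by 0.83 (SE 0.119, adjusted p = 0.00868). *Runx1* (-0.82, SE 0.193, adjusted p = 0.0622) and *Tcf12* (-0.65, SE 0.168, adjusted p = 0.088) had no overlap between the groups and passed the threshold with pairing by animal (adjusted p 0.0391 and 0.0174), which raised the count from 3 to 5 of 8 and the share of all genes called to 7.06%. The call of *Zbtb7b* was lost without KO CD4+ replicate 3 (0.0508) and without a trend (0.058). *Runx3* (-0.04), *Cbfb* (0.12) and *Ikzf1* (-0.13) were not called. The median of the 8 genes was -0.74, beside -0.01 over all genes.

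The DP level was also placed on a scale on which 0% is the KO CD8+ and 100% the KO CD4+ level of the same animal, as a description with no test. *Cd4* lay at 27.8%, 18.9%, 17.0% and 15.3% in animals 1 to 4. *Zbtb7b* lay at 5.14% to 21.0% and *Gata3* at -6.74% to 23.4%, each highest in animal 1. *Cd8a* lay at -5.44% to 9.17% and *Cd8b1* at -8.84% to 5.73%, which is at the CD8+ end. *Runx1*, at -46.2% to 7.91%, lay below the CD8+ level in 3 of 4 animals. Of the helper-lineage genes, 6 were called between KO CD4+ and KO CD8+ cells, and their medians over animals on this scale ran from -3.61% to 10.2%, with *Cxcr5*, the receptor that guides helper cells to follicles, at 0.565%. Among them *Tnfrsf4* reached 32.2% in animal 3. The medians of 10 cytotoxic-lineage genes ran from -22.9% to 27.9%, with *Eomes* at 27.9% and *Gzmk* at 18.7%. The median of *Cd4* was 18.0%, and the DP gate had fixed that it lay above 0%.

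**Figure D5:**
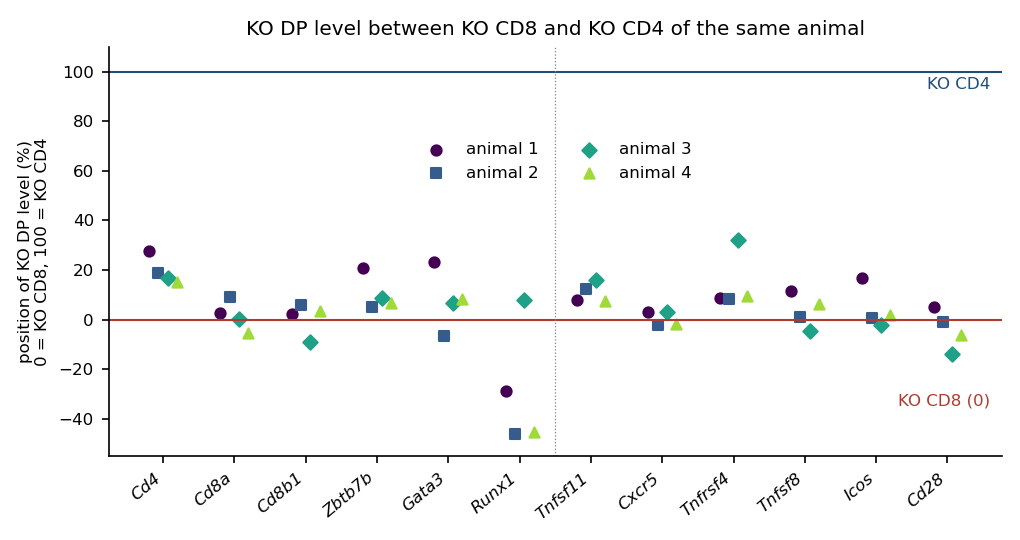
Position of the KO DP level between KO CD8+ (0%) and KO CD4+ (100%) cells of the same animal, for 6 of the 10 genes (left) and 6 helper-lineage genes (right), with a point per animal. *Cd4* lies at 15.3% to 27.8%, and the CD8 chains lie within 10 percentage points of the CD8+ level.

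Genes of the same program were counted from lists of genes known to act at the coreceptor loci or to mark either lineage. Of 26 partners at the coreceptor loci, 8 rose and 2 fell in KO CD8+ cells and 4 rose and 0 fell in KO CD4+ cells, with medians of 0.02 and 0.04. These counts stand beside the 25.2% and 18.4% of all genes called in CD8+ and CD4+ cells. *Satb1*, a chromatin organizer, rose by 0.92 in KO CD8+ cells (adjusted p = 0.0186), and its rise in KO CD4+ cells was 0.85 (adjusted p = 0.000594). *Lef1*, a partner of TCF-1, rose by 1.16 (adjusted p = 0.0057) and 0.80 (adjusted p = 0.00654), and *Patz1*, which encodes MAZR, a repressor acting at *Cd8* and *Zbtb7b*, by 0.80 (adjusted p = 0.00811) and 0.79 (adjusted p = 0.0117). *Zbtb7a*, a relative of *Zbtb7b*, rose by 0.29 (adjusted p = 0.0201) and 0.27 (adjusted p = 0.0473). *Tox*, which is needed for the CD4+ lineage in the thymus, fell by 0.96 (adjusted p = 0.00724) and *Id3*, an inhibitor of E proteins such as HEB, fell by 1.44 (adjusted p = 0.0177) in KO CD8+ cells. Between DP and KO CD8+ cells limma, edgeR and DESeq2 each called 0 of the 26, and 2 had an unadjusted p under 0.05. Of all genes, limma and edgeR called 0.00823% and DESeq2 0.0248% there, so that a count of 0 among 26 says little by itself. Against KO CD4+ cells *Ikzf3*, a relative of *Ikzf1*, rose by 0.84 (adjusted p = 0.0357) and *Tcf7*, which encodes TCF-1, fell by 2.41 (adjusted p = 0.0171) in DP cells, and with pairing by animal the count of partners called rose from 2 to 5. The share of all genes called in that comparison rose from 1.95% to 7.06%.

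Genes that mark either lineage were counted in the same way. Of 11 helper-lineage genes tested, 11 were higher in WT CD4+ than in WT CD8+ cells (median 2.68) and 6 in KO CD4+ than in KO CD8+ cells (median 2.58), or 11 with pairing by animal. In DP cells 4 were lower than in KO CD4+ cells (median -2.14, and 10 called with pairing by animal), among them *Cxcr5* (-3.82, adjusted p = 0.000398) and *Icos*, a costimulatory receptor (-1.69, adjusted p = 0.0106), while against KO CD8+ cells the median was 0.09. Of 16 cytotoxic-lineage genes, 8 were higher in DP than in KO CD4+ cells (median 1.94, and 13 called with pairing by animal), among them perforin (*Prf1*, 2.76, adjusted p = 0.000398), while against KO CD8+ cells the median was 0.09. Between DP and KO CD8+ cells limma, edgeR and DESeq2 each called 0 genes of either lineage list, and 0 had an unadjusted p under 0.05. Of all genes, limma called 44.5% between WT CD4+ and WT CD8+ cells and 0.00823% between DP and KO CD8+ cells. It called 4.22% between KO CD4+ and KO CD8+ cells, or 18.9% with pairing by animal. Between DP and KO CD4+ cells the share was 1.95%, or 7.06% with pairing by animal. Between genotypes, granzyme A (*Gzma*) rose in KO cells of both subsets, with a difference of 2.80 in CD4+ cells (adjusted p = 0.0152) that in CD8+ cells was 1.93 (adjusted p = 0.0276). *Gzmb* (1.32, adjusted p = 0.0112) and *Prf1* (0.96, adjusted p = 0.02) rose in KO CD4+ cells, in which 3 of the 16 rose and 1 fell. In KO CD8+ cells 2 rose and 4 fell, among the latter *Eomes*, a T-box factor of cytotoxic cells (-1.19, adjusted p = 0.00248). Of the 11 helper-lineage genes, 0 rose and 2 fell in KO CD4+ cells (median -0.54), the cytokines *Il21* (-1.35, adjusted p = 0.0418) and *Tnfsf11* (-1.19, adjusted p = 0.0223). The share of all genes called between genotypes was 18.4% in CD4+ and 25.2% in CD8+ cells. NK cell marker genes, which overlap this program, had the summed levels given above.

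The nearest genes to the coreceptor loci, 3 on each side, were chosen after the values were seen. Beside *Cd4*, 5 of the 6 neighbours passed the filter in CD8+ cells, *P3h3* being too low, and none of the 5 was called higher in KO CD8+ cells. *Gpr162*, 0.498 kb from *Cd4*, fell by 1.97 (SE 0.594, adjusted p = 0.0384), and *Lag3*, an inhibitory receptor related to CD4 that lies 16.1 kb away, gave -0.86 (adjusted p = 0.067). Beside the CD8 genes, *Rmnd5a*, 9.46 kb from *Cd8a*, rose by 0.55 in KO CD8+ cells (SE 0.0576, adjusted p = 0.000662), as did *Chmp3* at 165 kb, by 0.48 (adjusted p = 0.0208). The other neighbours of the CD8 genes were not called. They were *Rnf103* (0.25, adjusted p = 0.0853), *Krcc1* (0.08, 0.371), *Smyd1* (-0.16, 0.336) and *Mir8112* (-0.17, 0.502). Of all genes 25.2% were called in KO against WT CD8+ cells, 12.6% higher and 12.5% lower. *Smyd1*, 60.5 kb from *Cd8b1*, followed the CD8 pattern, with 918 ± 135 normalized counts in WT CD8+, 814 ± 47.8 in KO CD8+, 700 ± 132 in KO DP and 4.58 ± 2.86 in WT CD4+ cells. In KO CD4+ cells it lay between 0 and 48.8, with the highest value in replicate 1.

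Genes with the most similar pattern were ranked by Pearson's r of log2 values over the 20 libraries, which share 5 groups, and are given without a test. The nearest to *Cd8a* were *Cd8b1* (0.986) and *Smyd1* (0.978). Those to *Cd4* were *Lgals7* (0.933) and *Ctsz* (0.929), those to *Zbtb7b* were *Podnl1* (0.982) and *Lrrc41* (0.968), and those to *Runx3* were *Dnm1l* (0.926) and *Slk* (0.909). *Lgals7*, at 120 ± 11.8 in WT CD4+ and 6.33 ± 5.66 in WT CD8+ cells, was at 64.7 ± 38.0 in KO DP cells and, unlike *Cd4*, was not called between KO and WT CD8+ cells (1.32, SE 0.832, adjusted p = 0.266).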

How the data were processed

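RNA was measured in 20 libraries, and the titles gave each library its genotype, subset and number, which is written here as the animal. Reads of stranded poly(A) libraries were aligned by the authors to mm10 with STAR (2.7.2b in the submitters' processing notes, while the study's methods name another version), counted them on exons and divided them by DESeq2 size factors. The deposited values are this normalized signal for 17101 genes. Multiplying by the recovered factor gave whole reads for 100% of values (tolerance 0.01). No column was left unmapped.

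The test was limma 3.58.1 (R 4.3.3, lmFit and eBayes with trend, 2-sided) on log2(value + 1), on the libraries compared, for genes with a mean of at least 10, with Benjamini-Hochberg adjustment over all genes and a threshold of 0.05. Single values were compared by exact permutation, which with 4 against 4 cannot go below 0.0286. The titles give only a number for each library, so p-values measure the spread between these libraries. Alternatives were a pseudocount of 10, no filter, a minimum mean of 50, a common 75th percentile (over expressed or over all genes), quantile normalization, no trend, edgeR 4.0.16 and DESeq2 1.42.0 on whole reads, a joint fit of 20 libraries, a block for the animal, and leaving out each library in turn. Depth was 37547651 to 46966318 reads on genes, so that counting error is small beside the spread between animals for all but the lowest values. No pair of libraries in a group agreed within sampling noise (lowest chi-square over its degrees of freedom 10.6).

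Equal animal numbers paired libraries within a genotype. The deviations from group means correlated with r of 0.271 to 0.539 between equal numbers within KO and 0.120 to 0.196 within WT, against -0.395 to 0.116 and -0.138 to 0.0111 between different numbers. KO and WT libraries came from donors of different genotype, and whether an equal number there marks anything shared is not given in the sources used here. Between KO and WT, r was 0.0696 to 0.0846 for equal and -0.116 to 0.0873 for different numbers in CD4+ cells. In CD8+ cells it was -0.0024 to 0.099 and -0.119 to 0.129.

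The 10 genes, the lists and the named genes were chosen with earlier results of these data known, as were the ratios, neighbours, the scale between CD8+ and CD4+ levels, the 75th percentile over all genes and quantile normalization, which were added after seeing the data. Named genes are the 10, list members past the threshold and the genes nearest in pattern or position. *Cd40lg* and *Foxp3* of the helper list were not analysed here, and 1 more helper gene missed the filter. Bisulfite sequencing was not used here. The calculations were tested on simulated data.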

Additional observations from a re-analysis of the deposited data

Results flagged for a closer look

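The KO to WT difference in *Cd4* was larger in CD8+ than in CD4+ cells, by 4.05 on the log2 scale in a test of the interaction. Sets of 4 libraries, a set being 1 gene in 1 group, were searched for a highest or lowest library far from the other 3. Chance gives about 1 in 20 such sets if they are independent, but these share the same 20 libraries. The share over all genes was not counted. In 9 of 50 sets the highest or lowest library lay far from the other 3. In KO CD4+ replicate 1 this held for *Cd8a* (3771, the others 78.3 to 227), *Cd8b1* (4515, the others 549.9 to 788) and *Ikzf1* (40260.5, the others 42579 to 42987). In WT animal 5 it held for *Cd8a* in CD4+ cells (586, the others 99.1 to 174) and in CD8+ cells (68732, the others 62768 to 63084). It also held for *Cd8b1* in KO CD8+ replicate 4 (35472, the others 44901 to 46606), *Zbtb7b* in WT CD8+ replicate 2 (2959, the others 2733 to 2759), *Runx1* in KO DP replicate 2 (1155, the others 1944 to 2059) and *Ikzf1* in WT CD4+ replicate 6 (33644, the others 36496 to 37040.5).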

How the results depend on the processing

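The number of genes called is given first. In KO against WT CD4+ cells it was 2, and 1 without a trend, 4 with edgeR and 0 to 3 with a library left out. In KO against WT CD8+ cells it was 5, and 3 without a trend, 2 in the joint fit and 2 to 7 with a library left out, where leaving out any WT CD8+ library left *Cd4* and *Tcf12*. Between KO DP and KO CD4+ cells it was 3, and 5 with DESeq2, in the joint fit and with the replicate block, which pairs libraries of an animal, and 2 to 4 with a library left out. Between KO CD4+ and KO CD8+ cells it was 3, and 5 with DESeq2 and with the replicate block, and 2 to 3 with a library left out. In the interaction it was 1, and 0 without a trend and 0 to 1 with a library left out. Of all genes, 18.4% were called in KO against WT CD4+ cells, 11.3% without a trend and 18.3% with edgeR. In CD8+ cells the share was 25.2%, 20.6% without a trend and 16.2% in the joint fit. Between KO DP and KO CD4+ cells it was 1.95%, 5.99% with DESeq2, 11.7% in the joint fit and 7.06% with the block. Between KO CD4+ and KO CD8+ cells it was 7.85% with DESeq2. In the interaction it was 0.0161%, and 0% without a trend. With a library left out the share was not counted. Within genotypes the block changed the call of no gene of the 10 other than those given in the report, and between KO CD4+ and KO CD8+ cells it moved the partners called from 4 to 9 and the cytotoxic-lineage genes from 10 to 13. In that comparison it moved the share of all genes called from 4.22% to 18.9%. KO and WT share only the numbers 2 and 3, although their donors differ in genotype (r -0.0024 to 0.099), and with them as a replicate block 1 residual degree of freedom remained. With that block 0 of the 10 genes were called in either subset, where 0.21% of all genes were called in CD4+ and 0.719% in CD8+ cells. A count of 0 among 10 therefore says little by itself. *Cd8a* in CD4+ cells was at -0.46 and *Runx1* in CD8+ cells at -0.095.

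Directions that turned belonged to differences that were not called. For KO against WT these were, in CD4+ cells, *Cd8a* (-0.49 to 1.36 over left-out libraries), *Runx3* (-0.0057 to 0.071, and -0.014 after quantile normalization) and *Cbfb* (-0.020 to 0.11, and -0.0040 after quantile normalization), and in CD8+ cells *Runx1* (-0.0073 to 0.12). Between DP and KO CD8+ cells they were *Cd8a* (-0.14 to 0.10), *Cd8b1* (-0.10 to 0.10, 0.0016 at a common 75th percentile and 0.0017 at that over all genes) and *Cbfb* (-0.13 to 0.038), and the log2 ratio of *Cd8b1* to *Cd8a* (-0.12 to 0.14). Between DP and KO CD4+ cells *Runx3* turned (-0.14 to 0.22, 0.022 with edgeR and 0.024 with DESeq2), and between WT subsets *Ikzf1* (-0.028 to 0.019). In the interaction these were *Zbtb7b* (-0.24 to 0.12, 0.0092 with edgeR, 0.016 with DESeq2 and 0.020 after quantile normalization), *Cd8a* (-1.59 to 0.26), *Cbfb* (-0.035 to 0.12) and *Ikzf1* (-0.0011 to 0.094), and the log2 ratio of *Zbtb7b* to *Runx3* in KO against WT CD8+ cells ran from -0.39 to 0.030. The cause of these changes was not tested.

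With 4 animals in a group, the KO to WT calls of *Ikzf1*, *Runx3*, *Gata3* and *Cd8b1* were each lost in some fits that left out a library, as was that of *Tcf12* in CD4+ cells without WT CD4+ replicate 6 (adjusted p = 0.0513). *Cd4* in WT CD8+ cells rested on the lowest counts, 9.88 to 79.6 normalized.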
